A study of Mus musculus with 4 samples.

Results

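DC 1 is the cluster of 107 cells, of 4108 CD45+ cells in all, that the authors named DC 1 among the 16 clusters of their single cell RNA sequencing of mouse melanomas. The members are all cells that carry this name in the deposited cell table. The tumors were grown in wild type C57BL/6 mice from line 20967, a melanoma line made on a C57BL/6 background of genotype Nras+LSL-G12D;Tyr::CreERT2+/o, in which Cre is driven by the tyrosinase promoter of melanocytes and is active only after tamoxifen. Of the DC 1 cells, 97 came from 5 tumors labelled control (the study's methods name Cetraben cream as the control for topical agents) and 10 came from 5 tumors treated with clobetasol propionate, a potent glucocorticoid (GC). Control tumors 1 to 5 gave 18, 29, 31, 11 and 8 DC 1 cells, and GC tumors 1 to 5 gave 2, 1, 2, 2 and 3. The line is 1 tumor model, each tumor was marked by its own antibody hashtag, and the tumor numbers are only names. All control tumors were pooled into one 10x channel and all GC tumors into another, so channel and treatment cannot be told apart, and the channels shared 0 cell barcodes.

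Dendritic cells take up antigen in tissues and present it to T cells. When they mature, whether in response to danger signals or after taking up dying cells, they lose much of their capacity to take up antigen, gain the chemokine receptor CCR7 that guides them along lymphatic vessels to the draining lymph node, and raise molecules that stimulate or restrain T cells. In tumors such mature cells are known for carrying CCR7 and the actin-bundling protein fascin together with the T cell attracting chemokine CCL22, and for combining co-stimulatory with checkpoint ligands. Non-canonical NF-kB signaling, in which the kinase NIK (Map3k14) leads to processing of p100 (Nfkb2) and release of RelB, is part of the known biology of this state.

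RNA molecules were counted by their barcodes (unique molecular identifiers, UMIs), and a level is the number of UMIs of a gene per 10000 UMIs of a cell, averaged over the cells of a tumor. Control DC 1 cells held a median of 15827 UMIs (1460 to 26054) and GC DC 1 cells a median of 24266.5 (3433 to 28371), so single values rest on 131747 to 507845 UMIs per control tumor and on 28371 to 68617 per GC tumor. DC 1 was compared in control tumors with DC 2 (95 cells), Monocytes 1 (311 cells) and tumor-associated macrophages (TAM, 723 cells). A gene was called where log2(level + 0.1) differed between clusters of the same tumor with a limma adjusted p under 0.05. Since the authors drew the clusters from the expression of these same cells, a call describes how steady a difference was from tumor to tumor. It is no test that the clusters are distinct, and no p-value is given for a single gene.

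The name was first checked against its markers. Ccr7 stood at 24.2, 29.4, 28.1, 20.02 and 27.4 UMIs per 10000 in DC 1 of control tumors 1 to 5, and at 0.562, 2.89, 1.45, 1.06 and 3.70 in DC 2. All DC 1 values lay above all DC 2 values, and the next clusters were DC 2 with a mean of 1.93 ± 1.32 (SD, n = 5) and CD4 with 1.39 ± 0.454. Fscn1, which encodes fascin, stood at 21.9, 20.7, 20.3, 16.3 and 18.6 in DC 1. Its mean was 0.0400 ± 0.0248 in DC 2 and, in the second highest cluster, the eosinophils, 0.206 ± 0.255. Ccl22 stood at 11.1, 18.5, 17.0, 5.68 and 19.998 in DC 1, with a lower value in tumor 4 than in the others, against a mean of 1.12 ± 0.847 in DC 2. In GRCm38, Ccr7 lies at chr11:99144196-99155077 on the minus strand and Fscn1 at chr5:142960343-142973185 on the plus strand.

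Single cells carried the markers together. A UMI of Ccr7 was found in 93 of 97 control DC 1 cells (95.9%, exact 95% interval 89.8 to 98.9), against 16.8% of DC 2 cells and 4.82% of Monocytes 1 cells. The median depths of these 3 clusters were 15827, 15930 and 12410 UMIs, and after thinning each cell to 2000 UMIs the shares were 91.6%, 10.5% and 1.95%, with 2 DC 1 cells and 4 Monocytes 1 cells left out as shallower. Ccr7, Fscn1 and Ccl22 were all detected in 80 of the 97 cells, and in 77 of the 84 cells with at least 8000 UMIs. The 4 cells without Ccr7 held at most 3876 UMIs, and 1 cell held none of the 3 markers. These intervals cover counting error only.

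Markers of cells other than dendritic cells were sparse in DC 1, while those of dendritic cell types were mixed. Over the 6 monocyte markers the summed level was 0.412 to 2.18 per 10000 among control tumors, and at least 3 such UMIs were found in 12 of 97 control cells. The 8 macrophage markers summed to 0.804 to 1.18 in DC 1 and to 67.4 to 88.9 in TAM, and 15 DC 1 cells held at least 3 such UMIs. T cell, NK cell, B cell, neutrophil, melanoma and fibroblast markers each gave at most 23 UMIs over all 97 cells, with Cd4, Klrb1c, Ms4a1, Mlana, Dct, Tyrp1, Sox10, Col1a1 and Dcn at 0. Among dendritic cell types, Cd209a of conventional type 2 cells and Siglech of plasmacytoid cells were at 0 in control DC 1, which allows a pooled level of up to 0.0196 per 10000. Pooled DC 2 held 4.66 of Cd209a and 1.499 of Siglech, at least 237-fold and 76.3-fold higher, and its Siglech came mainly from tumors 2 and 3 (3.53 and 3.32, against 0.0711 or less in the others). The 9 type 1 markers summed to 12.4 to 19.4 in DC 1 and 7.28 to 19.8 in DC 2, the 6 type 2 markers to 1.48 to 3.87 and 7.55 to 22.0, the 6 plasmacytoid markers to 6.82 to 13.5 and 5.87 to 32.9, and the 2 Langerhans cell markers to at most 0.105 and 0.457. Not all plasmacytoid markers were low, as Tcf4 gave 870 and Runx2 392 UMIs over the 97 control DC 1 cells. The part of these dendritic cell types in the differences from DC 2 was not tested.

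Across all genes, DC 1 was called different from DC 2 at 36.8% of 5859 tested genes, with 826 higher (14.1%), 1328 lower (22.7%) and a median log2 difference of -0.15. Against Monocytes 1, 48.3% of 5782 genes were called, 1218 higher (21.1%) and 1576 lower (27.3%), with a median of -0.06 over 4 tumors, since tumor 5 held 4 Monocytes 1 cells. Against TAM, 48.1% of 6034 genes were called, 1083 higher (17.9%) and 1818 lower (30.1%), with a median of -0.21. Of the 5370 genes tested in all 3 comparisons, 671 were higher (12.5%) and 853 lower (15.9%) in DC 1 each time. The counts of gene lists that follow stand beside these shares, and nothing is read from the contrast, since the clusters were drawn from the same genes.

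**Figure D1:**
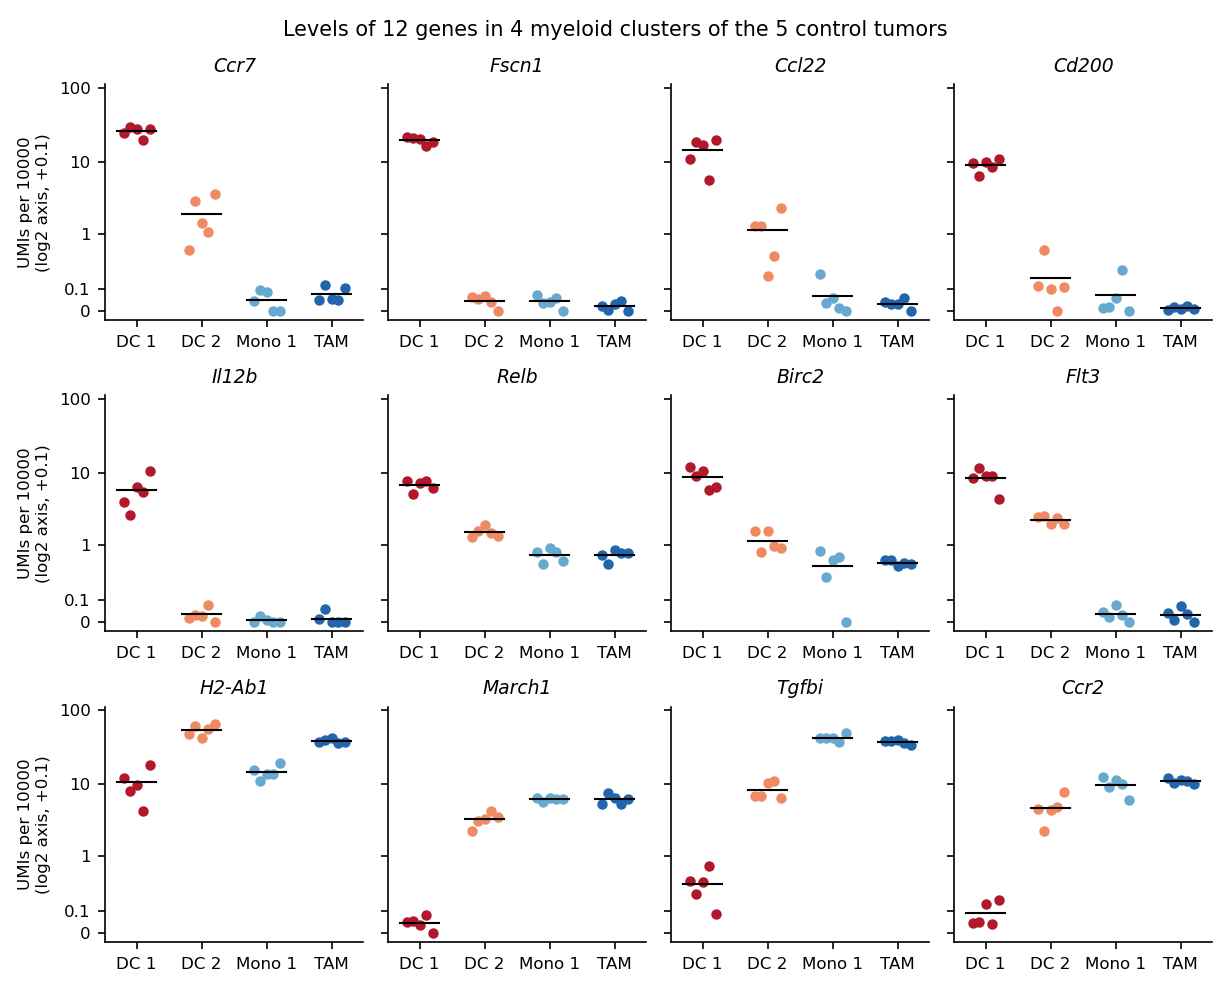
Levels of 12 genes (UMIs per 10000 on a log2 axis after adding 0.1) in DC 1, DC 2, Monocytes 1 and TAM of the 5 control tumors, with points for tumors and lines for the log2 of the mean level. The Fscn1 points of DC 1 lie between 16.3 and 21.9 while those of the other clusters lie near 0, and March1, Tgfbi and Ccr2 show the opposite order. Tumor 5 held 4 Monocytes 1 cells and is drawn but was not used in that comparison.

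Genes of maturation and migration were higher in DC 1 almost throughout. Of 12 members, all tested, 11 were higher than in DC 2, 10 were higher and 1 lower than in Monocytes 1 (Adam8), and 10 were higher than in TAM, with medians of 2.10, 3.72 and 3.08. The 10 members higher each time were Ccr7, Fscn1, Cacnb3, Myo1g, Marcks, Marcksl1, Tbc1d4, Samsn1, Cd83 and Nr4a3. The log2 difference of Ccr7 was 3.93 ± 0.27 (SE, n = 5) against DC 2, 7.41 ± 0.18 (n = 4) against Monocytes 1 and 7.24 ± 0.17 (n = 5) against TAM. Cacnb3, a calcium channel beta subunit, stood at 5.76, 6.48, 5.61, 7.78 and 3.29 in DC 1 and at 0.0609 or less in every DC 2 sample, a log2 difference of 5.54 ± 0.26. Tbc1d4, a Rab GTPase-activating protein, stood at 27.5, 41.1, 29.2, 27.6 and 27.7 in DC 1 and at 2.12 to 4.82 in DC 2. Cd83, a surface marker of mature dendritic cells, was closest between the dendritic clusters, at 16.9, 20.9, 18.6, 16.3 and 37.6 in DC 1 and 9.52, 11.6, 14.6, 21.0 and 13.5 in DC 2, where the groups overlap. Without tumor 5 its log2 difference was 0.41 in place of 0.62 ± 0.21, and it was also not called without tumor 1 or tumor 2.

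Chemokines divided into a small set that was higher and a larger set that was lower. Of 11 members tested in all 3 comparisons, Ccl22, Ccl17 and Ccl5 were higher and Ccl3, Ccl4, Ccl6, Ccl9, Cxcl9 and Cxcl10 lower each time. Ccl17, which like CCL22 binds CCR4 on T cells, stood at 2.81, 0.476, 3.07, 0.684 and 3.27 in DC 1 and at 1.86, 0.201, 0.127, 0.0349 and 0.0579 in DC 2, so that tumor 1 of DC 2 lay above tumors 2 and 4 of DC 1. Ccl5, a T cell attracting chemokine, stood at 14.9, 10.4, 22.2, 21.4 and 15.9 in DC 1, above every value of DC 2 (0.376 to 1.09). Cxcl9, a ligand of CXCR3, stood at 0.143, 0.201, 0.380, 0 and 0 in DC 1 and at 3.13 to 9.70 in DC 2. Ccl3 and Ccl4, inflammatory chemokines, were lower than in DC 2 by log2 differences of -3.11 ± 0.43 and -4.10 ± 0.42 (n = 5).

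The chemokine receptors showed one receptor of high level in place of the monocyte set. Of 8 members tested throughout, Ccr7 and Ccr6 were higher and Ccr1, Ccr2 and Cx3cr1 were among those lower each time. Ccr2, the receptor that brings monocytes into tissue, stood at 0.0349 to 0.185 in DC 1, at 2.29 to 7.72 in DC 2 and at 9.83 to 12.1 in TAM. Ccr6, a receptor of immature dendritic cells, was low even in DC 1, at 0.882, 0.0834, 0.771, 0.0764 and 0.597. Its log2 difference from DC 2 was 1.74 ± 0.50, and it was not called without tumor 1, 3 or 5.

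Co-stimulatory ligands were higher in part. Of 7 tested members Cd40, Cd80 and Tnfsf4 were higher in all 3 comparisons, while Cd86 was lower than in DC 2 and TAM. Cd80, a ligand of CD28 and CTLA-4, stood at 7.46, 6.95, 8.72, 11.0 and 11.7 in DC 1 and at 4.09 to 6.17 in DC 2. Cd86, which binds the same receptors, stood at 12.2, 17.2, 12.5, 11.8 and 17.3 in DC 1 and at 18.7, 22.5, 30.5, 37.2 and 25.8 in DC 2, so the ligand pair had opposite orders between these clusters with no overlap in either. Tnfsf4, which encodes OX40 ligand, stood at 2.47, 3.14, 1.44, 1.56 and 0.380 in DC 1 and at 0 to 0.238 in DC 2. Cd40, the receptor through which T helper cells license dendritic cells, exceeded DC 2 by 1.20 ± 0.29 on the log2 scale. Against Monocytes 1 its difference was 0.85 ± 0.23, which was not called without tumor 3 (0.65).

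Checkpoint ligands also went both ways. Pdcd1lg2 (PD-L2) and Cd200 were higher each time among 8 tested members, and Vsir, Lgals9 and Havcr2 were lower. Cd200, a ligand that restrains myeloid cells through CD200R, stood at 9.56, 6.42, 9.95, 8.56 and 10.9 in DC 1 and at 0.562 or less in DC 2, with log2 differences of 5.30 ± 0.37, 5.74 ± 0.30 and 6.35 ± 0.21 from DC 2, Monocytes 1 and TAM. Cd274 (PD-L1) stood at 12.03, 14.5, 12.7, 8.95 and 8.93 in DC 1 and at 3.31, 5.78, 13.3, 6.54 and 2.45 in DC 2, where tumor 3 of DC 2 reached the DC 1 values. Cd274 exceeded DC 2 by 1.07 ± 0.26 and TAM by 1.25 ± 0.15 on the log2 scale, while its difference of 0.33 ± 0.16 from Monocytes 1 was not called except without tumor 4 and on the mean of log values. Havcr2 (TIM-3), an inhibitory receptor of dendritic cells, stood at 0.0364, 0.359, 0.269, 0 and 1.42 in DC 1 and at 2.13 to 5.29 in DC 2.

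Among cytokines, Il12b was high in DC 1 and near 0 in the other 3 clusters compared. Il12b, the p40 chain shared by IL-12 and IL-23, stood at 3.97, 2.66, 6.35, 5.42 and 10.6 in DC 1, and no value of DC 2, Monocytes 1 or TAM passed 0.0739. Il15 was also higher each time, but its difference of 0.64 ± 0.19 from Monocytes 1 was not called without tumor 1, 2 or 3, by edgeR or by DESeq2. Il1b stood at 9.73, 17.3, 16.7, 11.98 and 18.4 in DC 1, below every DC 2 value (29.99 to 58.4), and Tgfb1 at 0.383 to 1.40, below 2.26 to 3.72. Of 19 cytokine receptors, Il15ra, Il2ra, Il21r, Il7r, Flt3, Tnfrsf4 and Tnfrsf9 were higher and 6 were lower each time, including Csf1r and Ifngr1. Il2ra, the IL-2 receptor alpha chain, stood at 4.03, 2.74, 4.12, 4.93 and 3.01 against 0.0899 to 0.329 in DC 2. Il15ra, which presents IL-15 to T and NK cells, stood at 2.30, 2.83, 4.11, 11.0 and 1.38, with tumor 4 above the others.

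NF-kB genes that were higher ran from subunits to the kinase. Of 19 members, all tested, 9 were higher in all 3 comparisons (Relb, Rel, Nfkb1, Nfkb2, Nfkbib, Traf1, Traf3, Birc2 and Map3k14) and 2 lower (Nfkbiz and Tnfaip2). Relb stood at 7.85, 5.22, 7.22, 7.78 and 6.25 in DC 1, at 1.31 to 1.89 in DC 2 and at 0.505 to 0.837 in TAM, with no overlap and a log2 difference of 2.10 ± 0.19 from DC 2. Relb lies at chr7:19606217-19629438 and Nfkb1 at chr3:135584655-135691547 of GRCm38, both on the minus strand. Map3k14, the kinase of the non-canonical pathway, stood at 12.6, 13.2, 13.1, 14.7 and 6.58 against 2.45 to 7.30 in DC 2, where tumor 5 of DC 1 fell below tumor 3 of DC 2. Traf3 and Birc2, which take part in the degradation of that kinase in resting cells, exceeded DC 2 by 1.53 ± 0.16 and 2.83 ± 0.19. Nfkb1 stood at 25.5, 22.8, 23.9, 30.4 and 15.8 against 7.30 to 10.9, and Rel at 24.2 to 28.0 against 7.52 to 18.2. The canonical subunit Rela was not called in any comparison, with log2 differences of 0.42 ± 0.25, 0.34 ± 0.23 and 0.53 ± 0.24.

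Promoter sequences were read for the listed genes that were higher in all 3 comparisons, the 9 NF-kB genes above included. Of 54 such genes, 41 matched the RefSeq promoter table (GRCm38.p6), and 8 of these (19.5%) held the NF-kB kappaB consensus, a motif of 10 letters searched on both strands, in the 250 bases before a transcription start. The same was true of 4.46% of all 27025 genes in the table and of 3.90% of its 32851 promoters. Nothing is read from this contrast. The genes came from chosen immune lists, the NF-kB list among them, and were picked by their values in these same cells. Listed genes that were not higher were not searched, and genes without an entry in the promoter table could not be. The genes were Ccr6, Il2ra, Irf1, Nfkb2, Pdcd1lg2, Rel, Tnfrsf9 and Traf3, and the stretches for 5 of them are shown 5′ to 3′ on the strand of the gene with the motif in capitals, overlapping matches merged. They lie at chr19:46304678-46304736 on the plus strand (Nfkb2), chr11:23771031-23771081 on the minus strand (Rel), chr12:111166340-111166369 on the plus strand (Traf3), chr19:29410669-29410704 on the plus strand (Pdcd1lg2) and chr4:150927936-150927986 on the plus strand (Tnfrsf9). A match is a run of letters and not a measured binding site.
Nfkb2: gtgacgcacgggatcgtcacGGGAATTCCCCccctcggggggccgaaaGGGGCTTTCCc
Rel: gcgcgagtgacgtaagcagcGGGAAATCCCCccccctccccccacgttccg
Traf3: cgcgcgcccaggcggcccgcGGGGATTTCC
Pdcd1lg2: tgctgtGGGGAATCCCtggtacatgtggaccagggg
Tnfrsf9: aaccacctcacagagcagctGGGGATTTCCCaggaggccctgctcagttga

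Antigen presentation showed low class II transcripts beside class I genes of mixed direction. All 12 MHC class II genes tested were lower in DC 1 than in DC 2, 7 of 10 were lower and 1 higher than in Monocytes 1, and 9 of 10 were lower and 1 higher than in TAM. H2-Ab1 stood at 12.1, 8.06, 9.61, 4.23 and 18.2 in DC 1 and at 46.5, 60.0, 41.9, 54.2 and 64.4 in DC 2. Ciita, the class II transactivator, stood at 0.606, 0.428, 0.121, 0.0400 and 0.352 against 2.18 to 3.59, and March1, the ligase that removes class II from the surface of immature cells, at 0.0764 or less against 2.29 to 4.31. H2-Aa stood at 16.6, 17.1, 16.9 and 8.27 in DC 1 of tumors 1 to 4, on both sides of Monocytes 1 (10.9 to 14.8). Its log2 difference of 0.15 ± 0.18 was not called, was 0.39 and called without tumor 4, and turned sign without tumor 2 and without the cells that held monocyte UMIs. Of 15 class I genes, Psmb8, Psme1, Psme2 and Nlrc5 were higher and Calr and Pdia3 lower each time. Psme2, a subunit of the proteasome activator, stood at 5.49 to 6.94 in DC 1 and at 1.64 to 2.98 in DC 2, with no overlap.

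**Figure D2:**
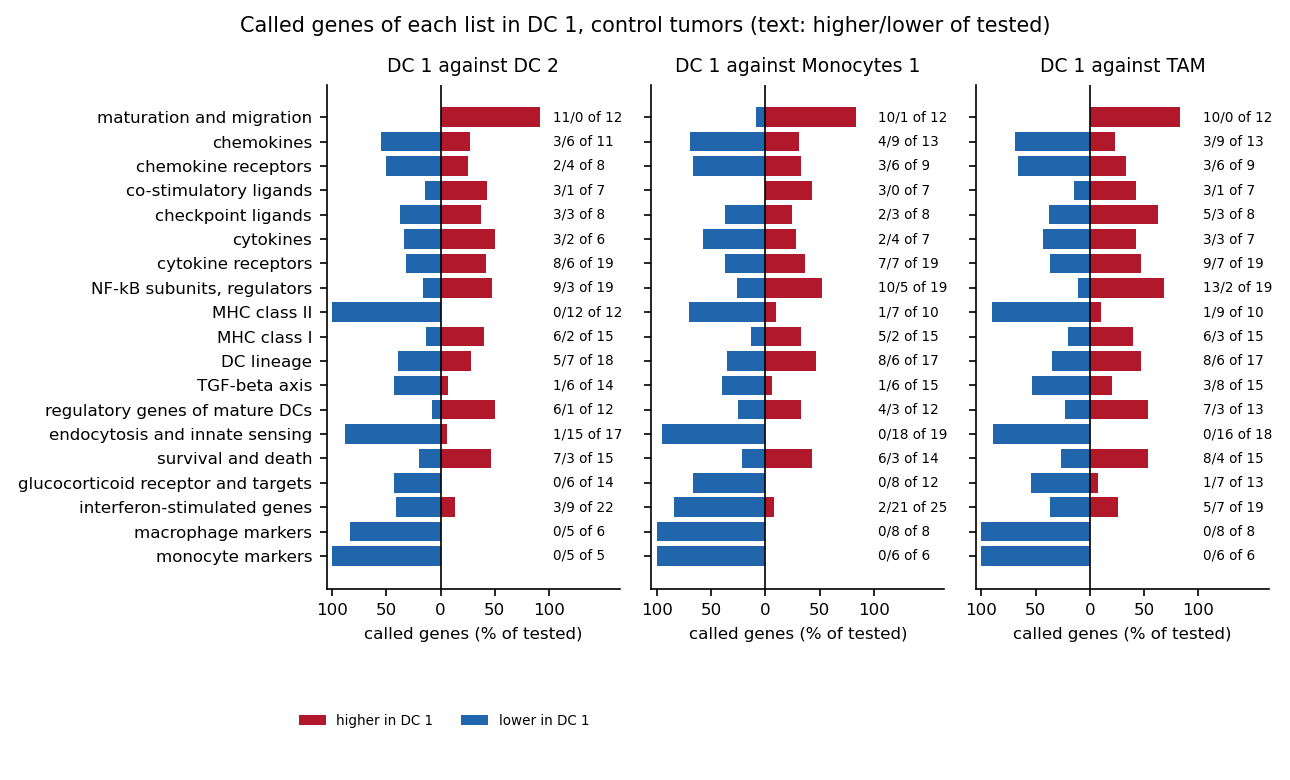
Genes called higher (right, red) or lower (left, blue) in DC 1 as a percentage of the tested genes of each list with at least 5 genes tested in all 3 comparisons, in control tumors. The numbers at the right give genes higher and lower of genes tested, such as 11 higher of 12 for maturation and migration against DC 2, and 12 lower of 12 for MHC class II.

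Lineage factors of dendritic cells lay both ways in DC 1. Of 17 lineage genes tested, 5 (Zbtb46, Flt3, Id2, Irf8 and Batf3) were higher each time and 6 (Itgax, Bcl6, Zeb2, Spi1, Runx3 and Notch2) were lower. Zbtb46, a factor of classical dendritic cells, stood at 4.73, 2.71, 3.93, 3.40 and 3.39 in DC 1, at 0.383 to 1.22 in DC 2 and at 0.0461 or less in TAM. Flt3, the receptor for the dendritic cell growth factor FLT3L, stood at 8.51, 11.7, 9.20, 9.18 and 4.37 against 1.96 to 2.60 in DC 2. Irf8 and Batf3, factors of conventional type 1 cells, exceeded DC 2 by 2.17 ± 0.38 and 2.31 ± 0.26, whereas Wdfy4, a gene of cross-presentation in the same cells, stood at 0.0868 or less against 3.17 to 5.30. Irf4, a factor of type 2 cells, did not differ in a called way from DC 2 (0.03 ± 0.31).

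Genes of antigen uptake and sensing were low. Of the 16 members tested throughout, 14 were lower each time, among them the Fc receptors Fcgr1, Fcgr2b, Fcgr3 and Fcgr4, the scavenger receptors Msr1 and Mrc1, and the sensors Tlr2, Ddx58 and Tmem173. Cd14, the lipopolysaccharide co-receptor, stood at 0.0249, 0.117, 0.265, 0 and 0.3497 in DC 1, below 1.69 to 4.17 in DC 2 and 8.75 to 9.90 in TAM. Fcgr3 stood at 0.02497 or less in DC 1 and at 0.785 to 1.21 in DC 2.

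Of 14 genes of the TGF-beta list tested throughout, 5 were lower each time (Tgfb1, Tgfbr2, Furin, Ski and Tgfbi). Tgfbr2, the type II receptor, stood at 0, 0.0290, 0.0147, 0 and 0 in DC 1 and at 0.450 to 0.775 in DC 2. Tgfbi, a TGF-beta induced matrix protein, stood at 0.0838 to 0.698 in DC 1 and at 33.2 to 39.4 in TAM. Lrrc32, which encodes the TGF-beta docking receptor GARP, was too low to be tested, at 0, 0.0725, 0.0316, 0 and 0.0505 in DC 1. Itgb8, a chain of the integrin that activates TGF-beta, was likewise not tested, at 0.0797, 0.0193, 0, 0 and 1.07. Among 11 regulatory genes described in mature dendritic cells, Pdcd1lg2, Cd200, Socs2 and Il4i1 were higher and Socs3 lower each time. Il4i1, a secreted amino acid oxidase, stood at 2.68, 3.31, 3.80, 1.77 and 4.67 against 0.0577 to 0.472 in DC 2, and Socs2, an inhibitor of cytokine signaling, at 3.22 to 8.69 against 0.0906 to 0.894.

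The remaining lists were mixed. Of 14 survival genes, Bcl2a1a, Bcl2a1b and Bcl2a1d were among those higher and Mcl1 and Bcl2l11 lower each time, but the Bcl2a1 genes are near-identical copies whose reads cannot be safely divided. Of 19 interferon-stimulated genes tested throughout, Irf1 was among those higher and 6 were lower each time, and 21 of 25 were lower than in Monocytes 1. Of 12 genes of the glucocorticoid receptor list, Sgk1, Mt1, Anxa1, Il1r2 and Ddit4 were lower each time. The receptor gene Nr3c1 stood at 1.33, 1.49, 0.899, 0.897 and 0.294 in DC 1, within or below the DC 2 range of 0.904 to 1.93. Of 3 cell cycle genes tested Tubb5 was higher each time, and Mki67 stood at 0.0469 or less in DC 1.

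Outside the lists, the rule of the 8 greatest differences in each direction named Serpinb6b, Slc22a23, Tmcc3 and Tmem150c as higher against DC 2. Serpinb6b, a serine protease inhibitor, stood at 7.61, 7.69, 8.08, 9.76 and 9.84 in DC 1 and at 0.376 or less in DC 2. Ly75, the endocytic receptor DEC-205, was named against Monocytes 1 and TAM and stood at 10.8, 15.2, 17.7, 16.5 and 3.15 in DC 1, against 0.166 to 1.504 in DC 2. Mreg and Tmtc2 were named against the same clusters, with log2 differences of 6.72 ± 0.22 and 6.38 ± 0.21 from Monocytes 1. The genes named as lower included Cd209a, Wdfy4 and Cxcl9 against DC 2, and Arg1, Fn1, Tgfbi and Ccr2 against both Monocytes 1 and TAM.

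Over the means of the 16 clusters in control tumors, the pattern of Ccr7 was most like that of Cd200 (Pearson r = 0.917 on log2(level + 0.1), of 4707 genes compared), followed by Rgs12 (0.876), Tbc1d4 (0.875), Relb (0.872), Net1 (0.858), Trim35 (0.856), Tmem123 (0.851) and Gnb4 (0.846). The 16 points share the same 5 tumors and 1 channel, so these values are a description. Tmem123 stood at 25.3 in DC 1, 3.49 in DC 2, 1.65 in Monocytes 1 and 2.81 in TAM.

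The 97 control cells were not uniform. Among 144 listed genes with at least 100 UMIs, the squared coefficient of variation beyond counting error had a median of 0.556. It was 0.219 for Ccr7, 0.119 for Relb and 0.0471 for Nfkb2, and 9.26 for Il6, 7.02 for Ccl17, 4.57 for Tnfsf4 and 4.10 for Il12b. Il12b was detected in 41 cells (42.3%, exact 95% interval 32.3 to 52.7), in between 35.5% and 62.5% of the DC 1 cells of each tumor, and reached 86.7 UMIs per 10000 in the highest cell. Ccl17 was detected in 31 cells (32.0%, 22.9 to 42.2), all 31 of which also held Ccl22, against 87 Ccl22 cells in all. Both Ccl17 and Il12b were found in 16 cells. In Monocytes 1, Il12b was detected in 0.643% and Ccl17 in 0.322% of cells, and after thinning to 2000 UMIs the DC 1 shares were 28.4% and 12.6%.

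**Figure D3:**
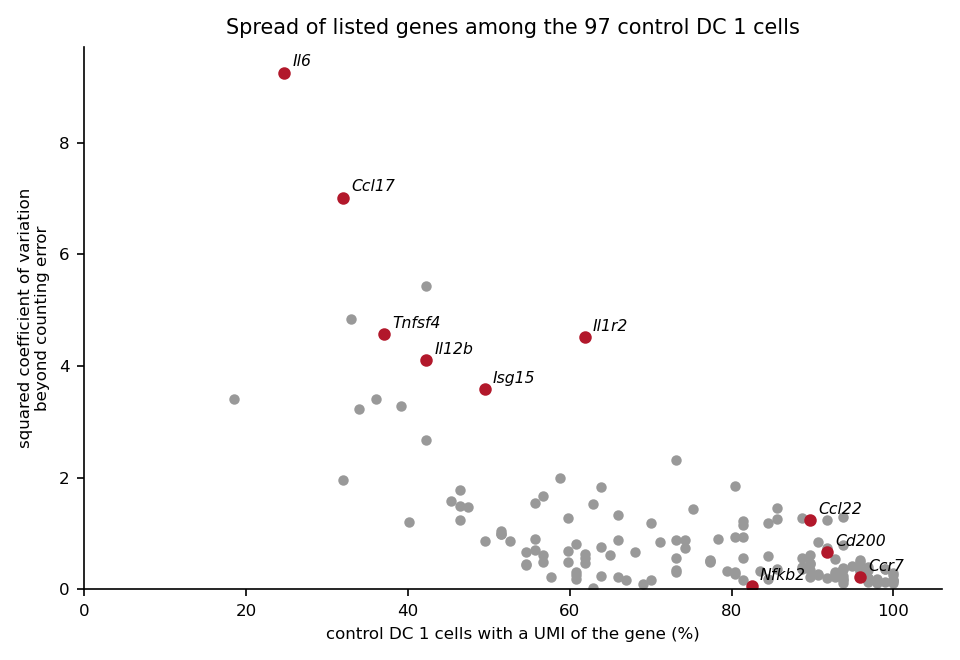
Spread of 144 listed genes among the 97 control DC 1 cells, as the squared coefficient of variation beyond counting error (vertical axis) against the percentage of cells with a UMI (horizontal axis), with some genes named. Il6 (9.26) and Ccl17 (7.02) stand above genes detected in most cells, such as Ccr7 (0.219).

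The share of DC 1 among leukocytes was compared between treatments. DC 1 made up 2.26, 3.46, 2.48, 1.93 and 2.31% of the CD45+ cells of control tumors 1 to 5 and 11.1, 1.33, 1.80, 9.09 and 3.80% in GC tumors. The GC values lay on both sides of the control values, and the 2 highest came from GC tumors with 18 and 22 cells in all. The means were 2.49% ± 0.578 and 5.43% ± 4.42 (SD, n = 5 and 5), a difference of 2.94 percentage points that was within the spread between tumors (exact two-sided permutation test, p = 0.278, adjusted over 2 shares p = 0.556, with 0.00794 the smallest possible). Pooled, 97 of 3803 control cells (2.55%, exact 95% interval 2.07 to 3.10) and 10 of 305 GC cells (3.28%, 1.58 to 5.95) were DC 1. Among DC 1 and DC 2 cells together, DC 1 made up 49.1% ± 7.99 in control tumors and 47.9% ± 19.0 in the 4 GC tumors with at least 3 such cells (exact permutation p = 0.937), and the sign of this difference depended on which tumors entered. Of myeloid cells DC 1 made up 4.69% ± 1.29 and 12.04% ± 9.83 (n = 5 and 5, exact permutation p = 0.175).

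**Figure D4:**
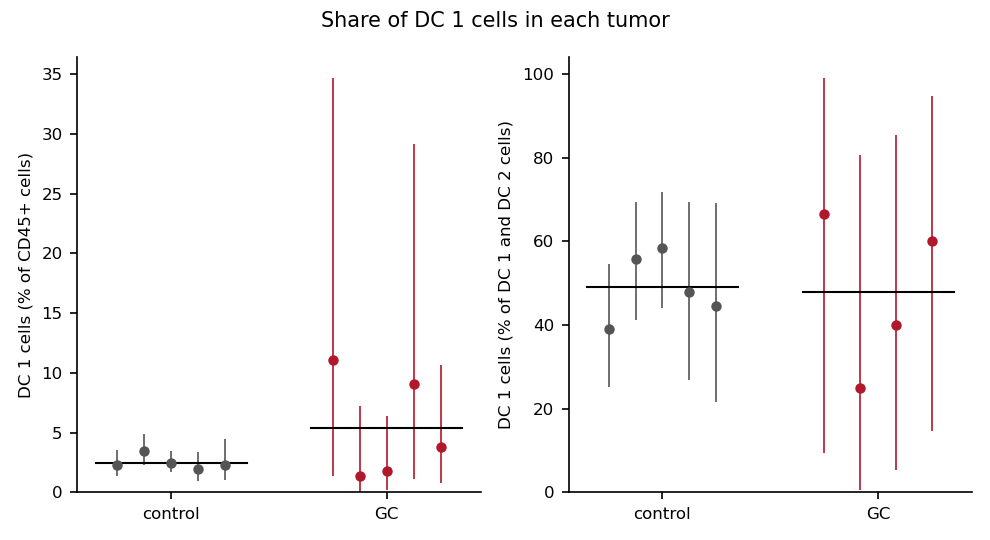
DC 1 cells as a percentage of CD45+ cells (left) and of DC 1 and DC 2 cells together (right), with a point for each tumor, its exact 95% interval and a line for the group mean. The control tumors lie between 1.93 and 3.46% of CD45+ cells, and the GC tumors between 1.33 and 11.1% with wide intervals. GC tumor 4 held 2 dendritic cells and is not shown at the right.

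The 10 GC cells were described as 1 pool of 223080 UMIs beside the pool of 1527265 UMIs from the 97 control cells. The values per tumor are also given, each from 1 to 3 GC cells. Pooled GC values of other clusters below rest on 9 DC 2, 18 Monocytes 1, 43 TAM and 54 CD8 1 cells. GC tumor 1 gave no Monocytes 1 or TAM cell, and GC tumor 4 no DC 2 or Monocytes 1 cell. All intervals of pooled levels cover counting error only, not the spread between cells or tumors. Past 2-fold on log2(level + 0.1), 15.1% of 8567 genes differed, 454 (5.3%) higher and 842 (9.83%) lower in the GC pool, with a median of -0.09. No test was planned for these cells, as each GC tumor held too few for one across genes. A test over tumors, with each GC tumor a value from 1 to 3 cells, was added after seeing the data. It was an edgeR quasi-likelihood test on UMI sums of 5 against 5 tumors, which called 2.51% of 5424 genes, 51 higher (0.94%) and 85 lower (1.57%). A limma fit of tumor means called 1.24%, 12 higher (0.221%) and 55 lower (1.01%). Both tools called 11 genes higher and 39 lower. Control values rest on 8 to 31 cells per tumor, and each tool fitted 1 spread per gene to both groups. The p-values below thus do not allow for a greater spread of values from 1 to 3 cells, and they are given as a description. Counts at an unadjusted p under 0.05 are given below without the share over all genes, so nothing is read from them. The monocyte markers summed to 0 to 10.2 per 10000 among GC tumors and the macrophage markers to 0 to 0.815, with Ly6c2, Ccr2, Vcan, Fn1, C1qa, C1qb, Apoe, Adgre1 and Mrc1 at 0. At least 3 monocyte marker UMIs were found in 2 of the 10 GC cells, 1 of which was the only cell of GC tumor 2 and held 29. Without such cells in either pool, a comparison added after seeing the data, 583 genes were higher and 1075 lower past 2-fold, with pooled log2 differences of 0.35 for Ccr7, 1.88 for Tsc22d3, -1.67 for Nfkb1, -2.61 for Isg15 and -5.40 for Hspa1b.

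Ccr7 and Fscn1 were high in the GC pool too. Ccr7 stood at 27.6, 28.9, 24.5, 47.1 and 21.8 in GC tumors 1 to 5, and pooled at 31.8 (95% Poisson interval 29.5 to 34.3) against 28.6 (27.8 to 29.5) in the control pool. Fscn1 stood at 18.2, 33.5, 20.7, 26.3 and 16.0, and pooled at 22.9 (21.0 to 24.98) against 20.6 (19.9 to 21.4). All 10 GC cells held a UMI of both. Of the 12 maturation genes 0 passed 2-fold in the pooled levels, and edgeR and limma each called 0, with 1 gene (Cd83) at an unadjusted p under 0.05 in both. Cd83, a surface marker of mature dendritic cells, stood at 16.9, 20.9, 18.6, 16.3 and 37.6 in control tumors and at 5.72, 7.75, 7.59, 15.2 and 12.5 in GC tumors. It was the 1 of 12 maturation genes whose tumors did not overlap, where 4.04% of all 8567 genes did not in this direction. The log2 difference of Cd83 was -1.16 in edgeR (adjusted p = 0.0522) and -1.19 ± 0.33 in limma (adjusted p = 0.0795). The limma log2 differences of Ccr7 and Fscn1 were 0.17 ± 0.27 and 0.18 ± 0.28. Il12b was uneven, at 6.67, 16.2, 1.62, 1.12 and 4.81.

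Genes of the glucocorticoid receptor list were higher in the GC pool in part. Past 2-fold, 7 of 14 members were higher (Mt2, Mt1, Ddit4, Per1, Dusp1, Fkbp5 and Tsc22d3) and 1 was lower (Errfi1). Of all 8567 genes 5.3% were higher and 9.83% lower past 2-fold. The list median was 0.93 against -0.09 over all genes. Tsc22d3, which encodes the glucocorticoid-induced leucine zipper GILZ, stood at 0.209, 0.645, 0.502, 0.387 and 0.421 in control tumors and at 2.28, 1.41, 0.539, 4.61 and 1.49 in GC tumors, with GC tumor 3 inside the control range. It rose by 1.78 on the log2 scale in edgeR (adjusted p = 0.0372). Ddit4, an inhibitor of mTOR signaling, stood at 0.376, 1.18, 0.505, 0.468 and 0.335 and at 1.63, 4.93, 0.359, 4.61 and 2.27, and rose by 1.93 (edgeR adjusted p = 0.0306). These were the 2 genes that edgeR called of 12 listed genes tested, where it called 0.94% of all 5424 genes higher. Limma called neither (adjusted p = 0.105 and 0.14). The edgeR call of Tsc22d3 was lost without GC tumor 1 or 4 (adjusted p = 0.0688 and 0.147), and that of Ddit4 without GC tumor 2 or 4 (adjusted p = 0.0804 and 0.0806). Mt1, a metallothionein, stood at 0.226 to 2.75 in control tumors and at 7.19, 6.34, 0.539, 11.97 and 14.4 in GC tumors, a log2 difference of 2.68 that edgeR did not call (adjusted p = 0.0532). The receptor gene Nr3c1 stood at 1.07 (0.916 to 1.25) and 0.852 (0.513 to 1.33) in the pools. In TAM of the same channels Tsc22d3 stood at 0.845 (0.787 to 0.906) and 3.78 (3.36 to 4.24).

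Nfkb1 fell in the GC cells, as the 1 member of the 19 NF-kB genes that edgeR or limma called. Nfkb1 stood at 6.21, 10.2, 7.77, 8.75 and 3.11 in GC tumors, all below the lowest control tumor (15.8), whereas values that did not overlap in this direction were found for 346 of 8567 genes (4.04%). It fell by 1.75 on the log2 scale in edgeR (adjusted p = 0.00417) and by 1.77 in limma (adjusted p = 0.00933), and without any single GC tumor the edgeR adjusted p was at most 0.0106. In each tool 7 of the 19 had an unadjusted p under 0.05. The share over all genes at this threshold is not given, so nothing is read from this count. Of the 19, 2 passed 2-fold lower in the pools (Nfkb1 and Tnfaip2), where 9.83% of all 8567 genes did. The tumors of 3 did not overlap (Nfkb1, Traf1 and Birc2), where the share in this direction was the 4.04% given above. Birc2, a ubiquitin ligase of the pathway, stood at 12.1, 9.20, 10.6, 5.89 and 6.42 in control tumors and at 4.73, 2.82, 3.59, 3.07 and 5.64 in GC tumors (edgeR log2 difference -0.97, adjusted p = 0.108). Relb stood at 6.22 (5.83 to 6.63) and 6.46 (5.44 to 7.5997) in the pools, Rel at 26.0 and 32.5, and Nfkb2 at 1.78 and 2.51, none of them called. In DC 2 the pooled level of Nfkb1 was 9.48 (9.0002 to 9.98) in control and 4.63 (3.68 to 5.74) in GC cells, and in TAM it was 5.04 (4.90 to 5.19) and 5.74 (5.21 to 6.30). Whether the difference itself varied between clusters was not tested. Tnfrsf9 (4-1BB), an activation-induced member of the TNF receptor family, stood at 4.03 to 9.09 in control tumors and at 2.91, 0, 9.08, 1.06 and 0.921 in GC tumors, and fell by 2.18 in edgeR (adjusted p = 0.028), but limma did not call it (adjusted p = 0.225), nor did edgeR without GC tumor 5 (adjusted p = 0.0519).

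Interferon-stimulated genes were lower in the GC pool in part, with 8 of 22 members past 2-fold lower, where 9.83% of all 8567 genes were. Of the 13 members tested over tumors edgeR and limma each called 2, both lower. Over all 5424 genes edgeR called 1.57% lower and limma 1.01%. In each tool 5 members had an unadjusted p under 0.05, from which nothing is read. Isg15, a ubiquitin-like modifier induced by type I interferon, stood at 2.19, 2.44, 2.72, 1.45 and 5.63 in control tumors and at 0.616, 0, 0, 0.224 and 0 in GC tumors, with no overlap. The control pool exceeded the GC pool, which held 4 UMIs, 11.8-fold (95% counting interval 4.58 to 43.7), and both tools called it (edgeR adjusted p = 0.00778, limma 0.00412). Oasl2 was also called lower by both, with 1 UMI in the GC pool and a ratio of 19.1 (3.37 to 761), but edgeR did not call it without GC tumor 1 or 5 (adjusted p = 0.0637 and 0.0612). Outside DC 1, Isg15 stood at 5.73 (5.49 to 5.97) and 1.16 (0.807 to 1.61) in Monocytes 1 of the control and GC channels, and at 0.697 and 0.326 in TAM.

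Ligands and regulatory genes of the mature state gave values in both directions, none of them called by edgeR. Cd80 stood at 12.8, 11.98, 20.1, 16.3 and 14.7 in GC tumors, above every control tumor (at most 11.7), where the share of genes with no overlap in this direction was 0.689%, and its log2 difference was 0.68 (edgeR adjusted p = 0.213). Cd274 stood at 2.47, 5.29, 3.77, 6.35 and 8.62, below every control tumor (at least 8.93), where the share of genes in this direction was 4.04%. The log2 difference of Cd274 was -0.99 (edgeR adjusted p = 0.108). Il4i1 stood at 1.24, 1.76, 1.62, 0.641 and 1.08, below every control tumor (at least 1.77), with a log2 difference of -1.40 (edgeR adjusted p = 0.0515). Cd200 stood at 0.834, 1.76, 7.03, 0.671 and 2.99, where GC tumor 3 overlapped the control range, and it was called by limma alone (-2.20 ± 0.48, adjusted p = 0.0238). Of 13 regulatory genes 6 passed 2-fold lower. Of the 12 tested over tumors edgeR called 0 and limma 1 (Cd200). In each tool 7 had an unadjusted p under 0.05, from which nothing is read. Ccl22 pooled at 8.38 (7.22 to 9.67) against 17.4 (16.8 to 18.1) and Cd40 at 0.897 (0.548 to 1.38) against 2.44 (2.19 to 2.70), neither of them called. Some of these genes differed between channels outside DC 1 too. In control and GC cells, Cd274 stood at 5.84 and 2.76 in DC 2, 9.60 and 3.15 in Monocytes 1, and 4.62 and 4.32 in TAM. Cd80 stood at 5.48 and 7.95 in DC 2 and at 3.11 and 6.23 in TAM. Cd40 stood at 1.08 and 0.338 in DC 2 and at 0.681 and 0.743 in TAM. The part of the channel was not tested. Of 11 chemokines Cxcl2, Cxcl9 and Cxcl10 passed 2-fold higher and Ccl22, Ccl3 and Ccl4 lower, and of 18 lineage genes Id2 passed 2-fold higher and Zeb2 lower. All 71 GC UMIs of Cxcl10 lay in 1 cell. Over all 8567 genes the shares past 2-fold were 5.3% higher and 9.83% lower. Of 11 MHC class II genes 0 passed 2-fold, and of the 9 tested over tumors edgeR and limma called 0, with 0 and 1 (H2-DMa) at an unadjusted p under 0.05.

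The rule for pooled GC cells named genes outside the lists in both directions. Ccnd3, which encodes cyclin D3, stood at 0.484, 0.482, 0.200, 0.331 and 0.212 in control tumors and at 2.66, 2.47, 4.55, 2.95 and 3.68 in GC tumors, with no overlap (edgeR log2 difference 2.90, adjusted p = 0.000478). Hvcn1, a voltage-gated proton channel, stood at 0.389 to 0.787 and at 2.88, 8.11, 4.51, 5.35 and 2.89 (edgeR log2 difference 2.59, adjusted p = 0.000478). Both were called by limma too. In the control and GC channels pooled Ccnd3 stood at 1.11 and 3.91 in TAM and at 1.56 and 4.54 in Monocytes 1. In CD8 1 it stood at 7.79 and 17.2, so it was higher outside DC 1 too. Pooled Hvcn1 stood at 0.698 and 0.535 in TAM and at 0.222 and 0.508 in DC 2. The part of the channel in these differences was not tested. Jdp2, a repressor of AP-1, stood at 0 to 0.424 and at 5.32, 0, 1.82, 6.05 and 3.40, and was called by edgeR but not limma (adjusted p = 0.0121 and 0.0979). Pooled Jdp2 stood at 0.448 and 2.05 in TAM and at 0.221 and 0.145 in CD8 1 of the control and GC channels. Cxcl10 was named as higher, but all 71 of its GC UMIs came from 1 cell of GC tumor 4. Vdr, the vitamin D receptor, Irf5 and Mkrn1 were chosen after their values were seen, as genes that both tools called higher, although edgeR lost Irf5 without GC tumor 1, 2 or 4 (adjusted p = 0.0603, 0.0678 and 0.0961). Vdr stood at 1.43 to 2.82 in control tumors and at 6.37, 4.58, 10.5, 9.82 and 5.07 in GC tumors. In the control and GC channels pooled Vdr stood at 1.90 and 3.67 in DC 2 and at 0.804 and 1.33 in TAM.

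The lower genes were led by heat shock genes. Hspa1b stood at 7.52, 4.58, 5.93, 1.83 and 6.77 in control tumors and at 0.208, 0, 0, 0 and 0 in GC tumors, with 875 UMIs in the control pool and 1 in the GC pool, a ratio of 128 (95% counting interval 22.9 to 5054). Its edgeR adjusted p was 2.8e-06, at most 4.6e-05 without any single GC tumor. Hspa1a, with 379 and 1 UMIs, is a near-identical copy, so the division of reads between them is uncertain. In other clusters of the same channels the pooled level of Hspa1b was 3.83 (3.64 to 4.03) and 0.397 (0.205 to 0.694) in Monocytes 1, 3.21 (3.09 to 3.32) and 2.06 (1.75 to 2.41) in TAM, and 6.65 (6.38 to 6.93) and 3.38 (2.88 to 3.94) in CD8 1. The part of the channel in this difference was not tested. Fabp5, a fatty acid binding protein, stood at 16.9, 29.5, 13.7, 14.7 and 15.3 and at 5.39, 0, 2.70, 1.04 and 2.69 (edgeR log2 difference -2.93, adjusted p = 0.00692; limma adjusted p = 0.0639). Pooled Fabp5 was lower in the GC channel outside DC 1 too, at 2.03 and 0.0331 in Monocytes 1 and 1.09 and 0.0913 in TAM. These GC values rest on 1 and 7 UMIs of Fabp5. S100a10 and Nrg1 were called lower by both tools, with 4 and 6 UMIs in the GC pool against 357 and 566. However, edgeR did not call Nrg1 without GC tumor 1 (adjusted p = 0.0591). In DC 2 of the control and GC channels pooled Nrg1 stood at 5.61 and 0.338, and in TAM at 15.2 and 9.19. In Monocytes 1 it stood at 11.9 and 14.6. Pooled S100a10 stood at 2.70 and 4.29 in DC 2, 3.72 and 8.61 in Monocytes 1, and 2.80 and 5.29 in TAM.

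**Figure D5:**
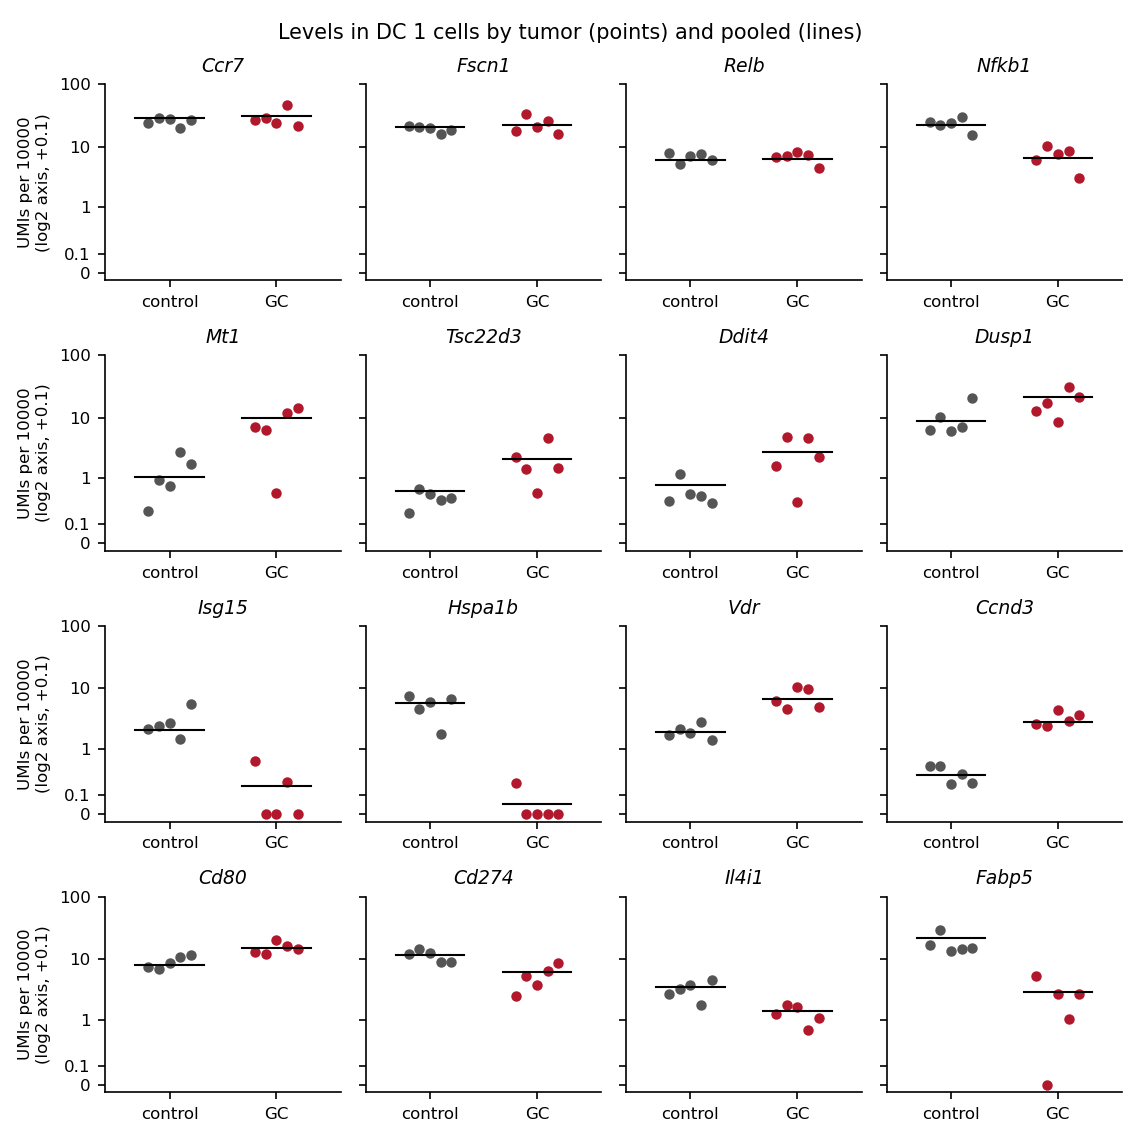
Levels of 16 genes in DC 1 cells (UMIs per 10000 on a log2 axis after adding 0.1) in the 5 control and 5 GC tumors, with points for tumors and lines for the pooled level. Nfkb1, Isg15, Hspa1b, Cd274, Il4i1 and Fabp5 lie lower and Vdr, Ccnd3 and Cd80 higher in all GC tumors than in all control tumors, while Ccr7, Fscn1 and Relb overlap, and each GC point rests on 1 to 3 cells.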

How the data were processed

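Each tumor was hashtagged, live CD45+ cells were then sorted and run on one 10x Genomics channel per treatment. The authors counted UMIs with Cell Ranger 7.1.0 on mm10, assigned hashtags and clusters in Seurat 5.0.3, kept cells with 1 hashtag and deposited, per gene, the natural log of 1 plus UMIs per 10000. The deposited cell table gives the count of UMIs and genes and the percent of mitochondrial UMIs. Hashtag doublets were thus removed, doublets within a tumor were not, and no caller was run. Whole UMIs were recovered for 100% of values (tolerance 0.01) in 4108 cells. The cluster names are the authors' own.

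For each of 3 comparisons in control tumors, linear means per tumor were compared as log2(mean + 0.1) with limma 3.58.1 (trended, robust) in R 4.3.3, with the tumor as block, at least 5 cells in both clusters, a mean level of at least 0.2 and Benjamini-Hochberg adjustment over all genes tested. This differs from a count test, which was run as an alternative with edgeR 4.0.16 and DESeq2 1.42.0 on UMI sums. Fits were tested on simulated counts per tumor, drawn without sampling of cells. Such a simulation does not cover GC values that rest on 1 to 3 cells. The tumor pairs the clusters by design, since both come from 1 animal. The correlation of same-tumor deviations was 0.00625 to 0.0496. Calls between clusters rest on the spread between tumors of 1 channel. P-values of GC against control compare tumors of different channels, so they cannot tell treatment from channel. Shares used exact permutation tests, and pooled levels exact Poisson intervals. Alternatives were the pseudocount, filter, block, log means, cell minimum, thinning to 2000 UMIs, 1 fit for 4 clusters and leaving out each tumor. Named genes were the 359 symbols of 30 lists (352 in the table), and outside them the 8 greatest differences in each direction with the same sign in every tumor and at least 1 per 10000 in the higher cluster, or, in the GC pool, with at least 20 UMIs and a level of at least 2. The cluster, the lists and the rules were chosen with earlier results of these data known. Some genes are not reported here.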

Additional observations from a re-analysis of the deposited data

Results flagged for a closer look

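In 107 sets of tumors, mostly of 5, 1 tumor was checked for standing apart from the rest by Dixon's ratio, and 18 sets did so. Chance gives about 1 in 20, and each value below is a level in UMIs per 10000 of DC 1 cells in the tumor that stood apart. In control tumors these were the highest values of Tbc1d4 (41.1), Cd83 (37.6), Ccl3 (0.224), Ccl4 (2.92), Il15ra (11.0), Havcr2 (1.42), Vsir (0.304), Batf3 (2.91), Id2 (24.3) and Wdfy4 (0.0868), and the lowest value of Map3k14 (6.58). Cd83, Ccl4, Havcr2, Batf3, Id2 and Map3k14 all came from control tumor 5, which held 8 DC 1 cells. In GC tumors these were the highest values of Oasl2 (0.352), Ccr7 (47.1), Hspa1b (0.208), Hspa1a (0.224), S100a10 (0.824), Nrg1 (1.76) and Cxcl10 (14.8), where each value rests on 1 or 2 cells and the other GC tumors were at or near 0 except for Ccr7.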

How the results depend on the processing

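The counts of called genes in the 3 comparisons stayed within 1.5 times under other pseudocounts, filters, tools, cell minimums and tumors left out. Without the replicate block the counts were 2122, 2845 and 2983 genes against DC 2, Monocytes 1 and TAM, against 2154, 2794 and 2901 with it, and of the genes named in the text Il15 against Monocytes 1 lost its call. Thinning cells to 2000 UMIs, which lowers depth by construction, left 990 calls against DC 2 (415 higher, 575 lower), 1826 against Monocytes 1 (709 higher) and 1867 against TAM (622 higher). With edgeR the median log2 difference over all genes was -0.03, 0.01 and -0.04, and 46.4, 47.6 and 46.8% of calls were higher in DC 1, against 38.3, 43.6 and 37.3%. In the GC pool, 50 genes were higher and 48 lower with a pseudocount of 1, and 1369 and 3380 after thinning, which leaves the GC pool with 2000 UMIs per cell. Over tumors, limma called 12 higher and 55 lower, and edgeR without 1 GC tumor called 31 to 55 higher and 39 to 100 lower (31 and 39 without GC tumor 2, 42 lower without GC tumor 1). Of these genes edgeR called 15 higher and 22 lower in every such fit.

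The difference in the DC 1 share of dendritic cells, -1.22 points, ranged from -7.47 to 6.42 with 1 tumor left out and was 0.444, 1.12, 6.42 and 1.42 without control tumor 2 or 3 or GC tumor 2 or 3, and 2.11 when pooled. Of 235 results for single genes, 3471 values under alternatives gave 7 changes of sign, 55 lost calls and 11 new ones. Against Monocytes 1, Cd86 turned from -0.05 to 0.23 on log values and ranged from -0.28 to 0.048 with 1 tumor left out. H2-Aa turned to -0.073 without cells with monocyte UMIs and ranged from -0.0085 to 0.39 with 1 tumor left out. Pooled Cxcl10 was -1.72 without GC tumor 4 and up to 3.83 without another GC tumor, as all its GC UMIs lay in 1 cell. For the others the cause was not tested, and the GC values rest on 10 cells.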
